A study of Homo sapiens with 9 samples.

Results

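The comparison described here sets ACHN cells edited with the second guide against ELOVL5 (KO#2) beside ACHN cells edited with the first guide (KO#1). ACHN is an established human renal cell carcinoma line. All edited cells carry a CRISPR/Cas9 disruption aimed at the same gene, and sgControl cells, which received a control guide, serve here as a reference level and enter no main test. Each group has 3 RNA sequencing libraries, so the comparison rests on 6 of the 9 libraries of the series. It covers the 12934 of 57773 table features, called genes here, whose mean signal over these 6 libraries was at least 10. The labels give no dose, time, clone number or pooling, and do not say that the libraries of a group came from separate cultures. The p-values therefore measure only the spread between these libraries, which may be technical.

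ELOVL5 encodes an elongase of the endoplasmic reticulum that lengthens polyunsaturated fatty acids of the omega-3 and omega-6 series, after a desaturase has introduced a double bond. Setting different guides against one gene side by side shows which transcripts stood at different levels in the edited cells, whatever the guides did in common.

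The libraries are quantile normalized, so that all 9 hold one set of sorted values with a total signal of 8625043.6. KO#2 replicate 1 stood apart from every other library. Over tested genes its log2(signal + 1) values correlated with KO#2 replicates 2 and 3 at a Pearson r of 0.662 and 0.728, whereas KO#2 replicates 2 and 3 correlated at 0.936 KO#1 libraries at 0.958 to 0.972 with each other, and KO#2 replicates 2 and 3 with KO#1 libraries at 0.922 to 0.977. In that library, genes with a transcript GC content up to 40% sat a median of 2.08 log2 units below the mean of the other 5 KO libraries, and genes above 60% sat 1.75 above it. In the other KO libraries these medians lay between -0.25 and 0.23. At least 10 reads were read back for 10257 features in KO#2 replicate 1, against 12421 to 13254 in the other 8 libraries. The lowest signal at 10 reads was 55.7 in KO#2 replicate 1, against 6.67 to 12.6 in the others. Lower values of KO#2 replicate 1, such as those of WNT5A, PDZK1, STK32A, CYP24A1, KIAA1462 and FOXF2, thus rest on fewer than 10 reads. Most results below are therefore given both with and without KO#2 replicate 1. Leaving it out does not remove this limit. CYP24A1, KIAA1462 and FOXF2, at 3.56, 6.67 and 6.44, were also under 10 reads in KO#2 replicate 2. So were CYP24A1 and INPP4B, at 5.11 and 4.33, in KO#2 replicate 3. PDZK1, SCG5, CLCN7 and STK32A, at 0 to 5.44, were under 10 reads in every KO#1 library. Renal epithelial markers such as PAX8, at 1673 to 3684 in KO libraries, were present, and CDH6 was listed at 0 in all 9. Of 14 markers of other cell types, 5 were at 0 in every KO#2 library, 5 in every KO#1 library and 7 in every sgControl library, and their summed signal was 68.7 to 213 in KO#2, 106 to 142 in KO#1 and 120 to 140 in sgControl. PTPRC, CD3E, LYZ, DCN and ALB stood at 0 to 4.11 in the KO libraries, but COL1A1 at 27.6 to 102 and PDGFRB at 16.2 to 67.3, and CD68 and VWF were highest among KO libraries in KO#2 replicate 1, at 85.9 and 15.4. Their part in the results was not tested.

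**Figure D1:**
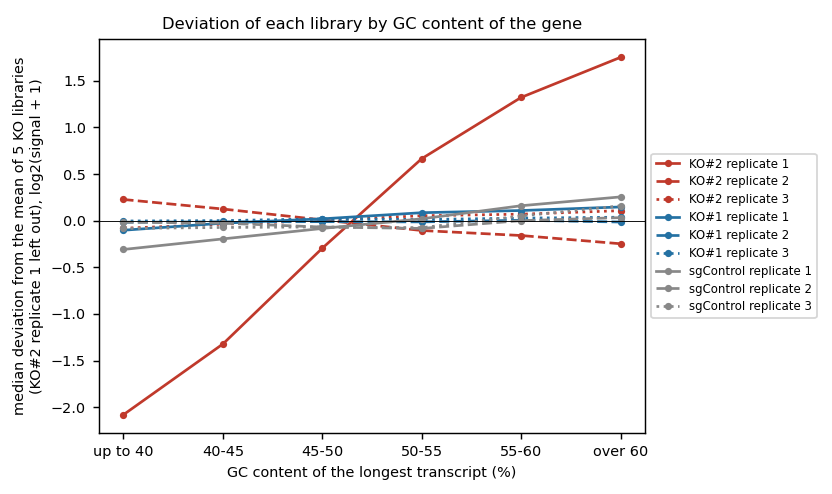
Median deviation of genes from the mean of the 5 KO libraries other than KO#2 replicate 1, on the log2(signal + 1) scale, by GC content of the longest transcript; 1 line is 1 library. KO#2 replicate 1 runs from -2.08 in the lowest GC class to 1.75 in the highest, and the other KO libraries stay between -0.25 and 0.23.

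The targeted gene checks the labels of edited against sgControl libraries, but cannot tell KO#2 from KO#1, as both guides aim at it. ELOVL5 had a signal of 434, 1805 and 910 in KO#2 replicates 1 to 3, against 805, 1345 and 1016 in KO#1 and 1999, 2713 and 2063 in sgControl. The KO#2 and KO#1 libraries overlapped, and all 6 lay below all 3 sgControl libraries. Between the guides the log2 fold change was -0.21 (SE 0.54, limma, Benjamini-Hochberg adjusted p = 0.925, n = 3 each), and without KO#2 replicate 1 it was 0.31 (SE 0.35, adjusted p = 0.939). A signal of RNA does not show how much of it still encodes a working elongase.

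Across all genes, 0 of 12934 (0%) passed a Benjamini-Hochberg adjusted p under 0.05 in limma with all 6 libraries, where 263 had an unadjusted p under 0.05, 140 higher and 123 lower in KO#2. The lowest adjusted p was 0.558. Without KO#2 replicate 1 just 1 gene passed (0.00773%), KIAA1199, and 690 genes had an unadjusted p under 0.05, 336 higher and 354 lower. KIAA1199 was chosen after its values were seen. All 3 KO#2 libraries lay above all 3 KO#1 libraries for 578 genes (4.47%) and below them for 577 (4.46%). Full separation of 3 against 3 libraries has an exact permutation p of 0.1, so these counts alone do not show a difference between the guides. Leaving out KO#2 replicate 1, these counts were 1354 (10.5%) and 1304 (10.1%). The median log2 fold change over all genes was -0.01 in both fits.

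KIAA1199, known in RefSeq as CEMIP, encodes a protein that binds hyaluronan and takes part in its breakdown. Its signal was 87.4, 20.1 and 23.0 in KO#2 libraries, against 249, 334 and 223 in KO#1 and 54.7, 35.4 and 24.6 in sgControl. No KO#2 library reached a KO#1 library, and the KO#2 and sgControl libraries overlapped. It was lower in KO#2 by a log2 fold change of -3.56 without KO#2 replicate 1 (SE 0.29, limma adjusted p = 0.0378) and of -2.90 with all 6 libraries (SE 0.61, adjusted p = 0.888). Its call was lost without any single one of the other 5 libraries.

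The spread was also estimated over all groups, sgControl included. With all 9 libraries 0 genes passed (0%), 529 had an unadjusted p under 0.05, and the lowest adjusted p was 0.0563. When KO#2 replicate 1 was left out there were 12, 6 higher and 6 lower in KO#2 (0.0928%). With each library corrected for its GC trend there were 12 in all 9 libraries, 8 higher and 4 lower (0.0966%), and 13 without KO#2 replicate 1, 6 higher and 7 lower (0.105%). The 12 genes called without KO#2 replicate 1 remained called in all 12 cases after GC correction, and 6 of them were also called with all 9 libraries after it. KIAA1462, EPCAM, ADAMTS12, CYP24A1, ACSL1 and WNT5A were not, at limma adjusted p of 0.297, 0.188, 0.0994, 0.379, 0.414 and 0.0672 in that fit. In all 18 genes were called in at least 1 of these fits, and 16 of them had no overlap between the 6 KO libraries. Of all genes 4.47% lay wholly higher and 4.46% wholly lower in KO#2. The fits that picked the 18 used these same libraries, so the separation adds no support for the calls. These 18 were chosen after their values were seen. For STK32A, ADAMTS12 and CYP24A1 all sgControl libraries were at 0, so before GC correction they entered the estimate of spread with no spread of their own. Without sgControl and KO#2 replicate 1, the limma adjusted p of these genes was 0.200, 0.162 and 0.0947. Of the 8-library fit the log2 fold changes are quoted below, from the uncorrected values unless said otherwise. With the 6 KO libraries alone, the limma adjusted p was 0.888 for EPCAM, NFIA, PDE4D, ACSL1, ADAMTS12, WNT5A, CYP24A1, FOXF2 and KIAA1462. Their log2 fold changes there were, in this order, 1.96, 2.00, 1.41, 0.83, -5.44, -2.62, -2.93, -2.05 and -2.02. For SCG5, TNNC1, PDZK1, STK32A and INPP4B the adjusted p in that fit was also 0.888, at 3.53, 3.22, 2.55, 4.28 and -4.75. With all 9 libraries and no GC correction, the limma adjusted p for SCG5, TNNC1, PDZK1, STK32A and INPP4B was 0.212, 0.253, 0.302, 0.226 and 0.302. The fits that combine sgControl with GC correction were chosen after seeing the data.

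**Figure D2:**
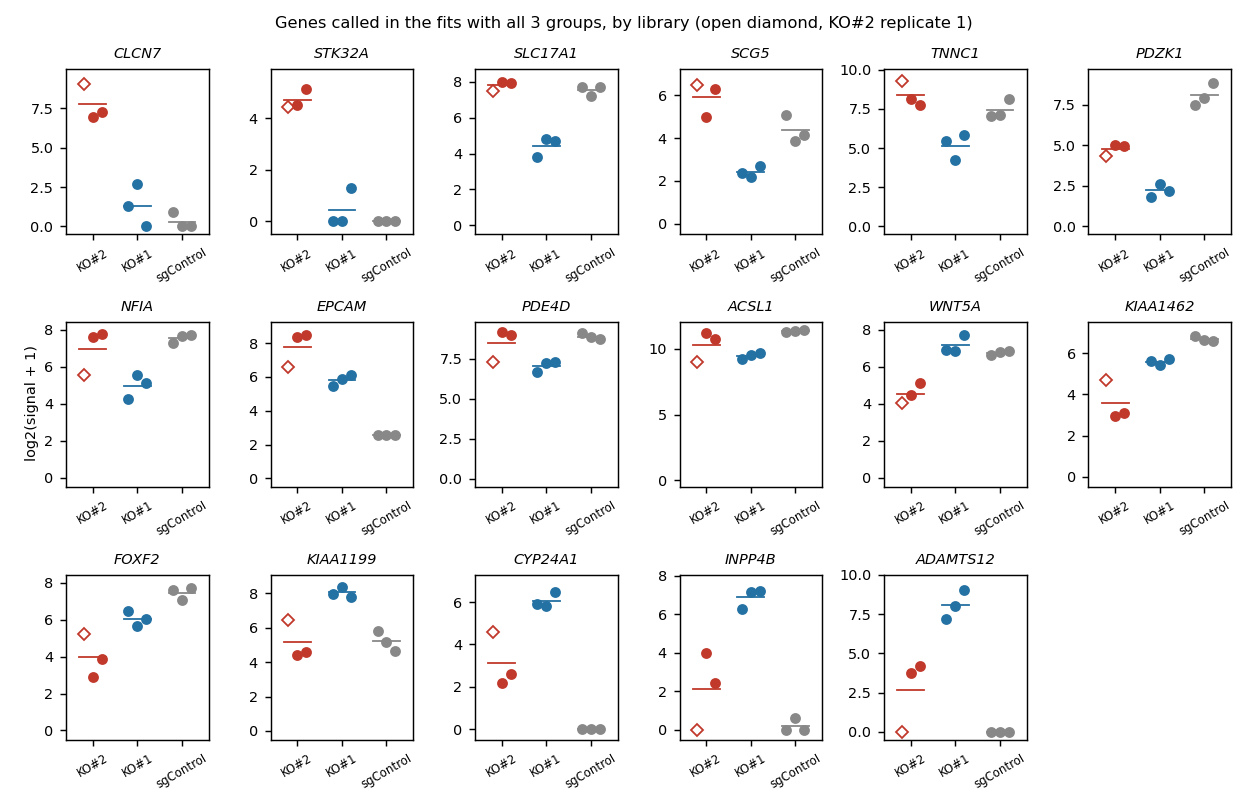
Signal of 17 of the 18 genes called in the fits with all 3 groups, as log2(signal + 1), with 1 point per library and a line at the group mean; the open diamond is KO#2 replicate 1. The KO#2 and KO#1 libraries do not overlap for 15 of the 17, and KO#2 replicate 1 often lies apart from the other KO#2 libraries. Of all genes 4.47% lay wholly higher and 4.46% wholly lower in KO#2. The drawn genes were picked by fits on these same libraries.

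SLC17A1, a phosphate and urate transporter of the proximal tubule, stood at 178, 252 and 247 in KO#2, 13.0, 26.9 and 24.6 in KO#1, and 206, 147 and 209 in sgControl. KO#2 and sgControl libraries overlapped, and every KO#1 library lay below both groups. It was called higher at a log2 fold change of 3.54 (SE 0.34, limma adjusted p = 0.0125) and stood at 3.38 (SE 0.48, adjusted p = 0.558) in the fit of the 6 KO libraries. PDZK1, a scaffold that holds brush border transporters, had 19, 30.9 and 30.1 in KO#2, 2.56, 5.11 and 3.56 in KO#1, and 178, 239 and 457 in sgControl. Its KO#2 libraries thus lay above the KO#1 libraries and far below the sgControl libraries. It passed with all 9 libraries after GC correction (2.86, SE 0.42, adjusted p = 0.0391), and at 2.77 without KO#2 replicate 1 its adjusted p was 0.0717. The 15 tested genes of the renal tubule identity list had medians of 0.16 with 6 libraries and -0.25 without KO#2 replicate 1.

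CLCN7, a chloride and proton exchanger of lysosomes, had the widest difference among the called genes. Its signal was 522, 122 and 157 in KO#2, against 1.44, 5.44 and 0 in KO#1 and 0.889, 0 and 0 in sgControl. The KO#1 and sgControl libraries were near 0. How the table's features were counted and named is not given in the sources used here, and whether these values follow the transcript was not tested. The log2 fold change was 5.80 (SE 0.77, limma adjusted p = 0.0335) without KO#2 replicate 1 and 5.93 (SE 0.67, adjusted p = 0.0169) with all 9 libraries after GC correction. STK32A, which encodes a serine/threonine kinase, likewise had 20.7, 22.1 and 34.6 in KO#2, against 0, 0 and 1.44 in KO#1, and was listed at 0 in all sgControl libraries. The GC corrected fit of all 9 libraries called it (4.61, SE 0.68, adjusted p = 0.0417). It did not pass without KO#2 replicate 1, at 4.41 (adjusted p = 0.0663, and 0.0782 after GC correction).

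EPCAM, an epithelial adhesion molecule, had 93.7, 329 and 349 in KO#2, 43.4, 58.8 and 69.2 in KO#1, and 4.89, 4.89 and 5 in sgControl. The 3 groups did not overlap, with sgControl lowest, and the call was at 2.57 (SE 0.31, limma adjusted p = 0.0299). NFIA, a transcription factor, stood at 45.1, 196 and 212 in KO#2, 17.9, 45.1 and 33.3 in KO#1, and 156, 202 and 208 in sgControl. KO#2 replicate 1 lay among the KO#1 libraries, while the other KO#2 libraries overlapped the sgControl ones, and the call was at 2.72 (SE 0.36, adjusted p = 0.0335). PDE4D, a phosphodiesterase that degrades cyclic AMP, had 159, 572 and 495 in KO#2, 102, 148 and 156 in KO#1, and 539, 459 and 420 in sgControl, with a call at 1.99 (SE 0.25, adjusted p = 0.0299).

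ACSL1, which attaches coenzyme A to long-chain fatty acids, had 512, 2319 and 1744 in KO#2, against 608, 751 and 799 in KO#1 and 2449, 2640 and 2733 in sgControl. Its KO#2 replicate 1 lay below the KO#1 libraries, so the groups overlapped, and the call at 1.49 (SE 0.20, limma adjusted p = 0.037) rests on KO#2 replicates 2 and 3. SCG5, a chaperone of the secretory granule, had 89.9, 30.9 and 78.6 in KO#2, 4.11, 3.56 and 5.44 in KO#1, and 32.7, 13.7 and 17.0 in sgControl. TNNC1, the calcium-binding subunit of troponin, had 618, 278 and 213 in KO#2, 42.2, 17.6 and 55.7 in KO#1, and 134, 138 and 282 in sgControl. KO#2 libraries exceeded all KO#1 libraries for both genes. After GC correction of all 9 libraries both passed, at 3.68 (SE 0.56) for SCG5 and 2.89 (SE 0.44) for TNNC1, each with a limma adjusted p of 0.0421. Neither passed without KO#2 replicate 1, where SCG5 stood at 3.24 (adjusted p = 0.0787, and 0.0858 after GC correction) and TNNC1 at 2.78 (adjusted p = 0.113, and 0.107 after GC correction).

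ADAMTS12, a secreted metalloprotease, had 0, 12.7 and 17.4 in KO#2, against 144, 263 and 536 in KO#1, and was listed at 0 in all sgControl libraries. Its KO#1 libraries were the highest of the 9, and it was called at -4.11 (SE 0.53, limma adjusted p = 0.0303).

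WNT5A, a ligand that mostly signals without beta-catenin, had 15.6, 20.8 and 33.8 in KO#2, 117, 115 and 212 in KO#1, and 98.8, 111 and 113 in sgControl. Here the KO#2 libraries were the lowest of the 9. It was called at -2.37 (SE 0.34, limma adjusted p = 0.0475). INPP4B, a phosphatase of membrane phosphoinositides, had 0, 14.7 and 4.33 in KO#2, 75.3, 144 and 146 in KO#1, and 0, 0.556 and 0 in sgControl. KO#1 libraries held nearly all of its signal, and the call after GC correction of all 9 libraries was at -4.15 (SE 0.57, adjusted p = 0.0315). Without KO#2 replicate 1 it stood at -3.69 (adjusted p = 0.0663) and passed after GC correction (adjusted p = 0.0304).

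CYP24A1, the mitochondrial hydroxylase that inactivates vitamin D, had 23.1, 3.56 and 5.11 in KO#2, against 58.3, 54.8 and 88.3 in KO#1, and was listed at 0 in all sgControl libraries. Its call was at -3.66 (SE 0.47, limma adjusted p = 0.0303). FOXF2, a forkhead transcription factor, had 37.2, 6.44 and 13.7 in KO#2, 87.2, 49.7 and 65.3 in KO#1, and 194, 136 and 209 in sgControl. KIAA1462, known in RefSeq as JCAD and as a protein of cell junctions, had 24.7, 6.67 and 7.56 in KO#2, 48.1, 42.6 and 51.4 in KO#1, and 113, 98.2 and 96.0 in sgControl. For FOXF2 and KIAA1462 the 3 groups kept a strict order without overlap, with KO#2 lowest and sgControl highest. FOXF2 was called at -2.67 (SE 0.39, adjusted p = 0.0475) and KIAA1462 at -2.57 (SE 0.29, adjusted p = 0.0198).

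The promoters of 3 genes that were near 0 in some groups or the only call of the 5-library fit are printed below, from RefSeq on GRCh38.p14, from 250 bases before to 50 bases after the start of the gene on its own strand, 5′ to 3′, with CpG dinucleotides in capitals. CpG positions are where promoter DNA can be methylated, which is why they are marked. STK32A, INPP4B and CYP24A1 are named only.
CLCN7 promoter, chr16:1474979-1475278, minus strand: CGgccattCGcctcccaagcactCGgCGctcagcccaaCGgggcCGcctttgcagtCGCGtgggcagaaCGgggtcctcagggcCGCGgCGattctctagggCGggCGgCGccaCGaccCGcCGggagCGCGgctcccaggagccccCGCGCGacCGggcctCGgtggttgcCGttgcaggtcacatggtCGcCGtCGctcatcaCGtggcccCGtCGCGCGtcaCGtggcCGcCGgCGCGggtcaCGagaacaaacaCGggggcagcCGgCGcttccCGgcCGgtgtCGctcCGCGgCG
ADAMTS12 promoter, chr5:33891941-33892240, minus strand: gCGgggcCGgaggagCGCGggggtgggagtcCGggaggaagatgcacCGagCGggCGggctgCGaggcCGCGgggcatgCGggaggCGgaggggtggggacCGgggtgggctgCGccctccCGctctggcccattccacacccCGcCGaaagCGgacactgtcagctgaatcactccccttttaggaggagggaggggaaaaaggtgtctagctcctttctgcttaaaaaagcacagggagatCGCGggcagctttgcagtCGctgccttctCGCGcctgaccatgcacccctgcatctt
KIAA1199 promoter, chr15:80779120-80779419, plus strand: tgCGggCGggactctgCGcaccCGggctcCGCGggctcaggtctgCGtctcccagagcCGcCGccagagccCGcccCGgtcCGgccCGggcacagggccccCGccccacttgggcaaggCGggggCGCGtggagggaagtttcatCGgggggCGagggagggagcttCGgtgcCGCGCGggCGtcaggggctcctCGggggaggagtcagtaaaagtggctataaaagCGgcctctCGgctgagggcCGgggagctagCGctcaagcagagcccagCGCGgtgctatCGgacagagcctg
The CLCN7 window holds 49 CpG dinucleotides, the KIAA1199 window 32 and the ADAMTS12 window 24, where the median over 35114 RefSeq promoters of this length is 14. Only the KIAA1199 window holds the letters TATAAA on either strand, as do 11.5% of those promoters; no other motif was searched. These are descriptions of the sequence, and DNA methylation was not measured here.

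sgControl placed beside the guides shows which guide departed from the control level, as a description. Of the 10 called genes higher in KO#2, the sgControl mean lay beyond KO#2 for 4, between the guides but nearer KO#2 for 3, nearer KO#1 for 0 and beyond KO#1 for 3. Of the 8 called genes lower in KO#2 it lay beyond KO#2 for 4, nearer KO#2 for 1, nearer KO#1 for 1 and beyond KO#1 for 2. With KO#2 replicate 1 left out of the KO#2 mean, the 10 genes gave 2 beyond KO#2, 5 nearer KO#2, 0 nearer KO#1 and 3 beyond KO#1, and the counts for the 8 genes were the same as before. Among the 578 genes higher in KO#2 without overlap, sgControl lay beyond KO#2 for 144, nearer KO#2 for 114, nearer KO#1 for 142 and beyond KO#1 for 178. For the 577 lower genes the counts in the same order were 123, 126, 175 and 153. In the same way without that library, the beyond-KO#2 counts were 216 of 578 and 237 of 577.

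The genes with the widest gap between the groups were chosen after their values were seen, among protein-coding genes with a mean signal above the median of 258.3. FN1, the matrix protein fibronectin, had 1009, 939 and 1242 in KO#2, against 2766, 3092 and 4323 in KO#1 and 4636, 2700 and 2777 in sgControl. THBS1, thrombospondin 1, had 3698, 5746 and 6043 in KO#2, against 19643, 18746 and 11438 in KO#1 and 32238, 36866 and 36866 in sgControl. For FN1 and THBS1 all KO#2 libraries were the lowest of the 9, and the log2 fold changes were -1.66 (SE 0.35) and -1.68 (SE 0.37), each with a limma adjusted p of 0.888; without KO#2 replicate 1 they were -1.62 and -1.45.

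SPARC, a secreted glycoprotein that binds collagen, had 2666, 3557 and 3475 in KO#2, against 6472, 7458 and 6235 in KO#1 and 2085, 2861 and 1716 in sgControl. PTPRM, a receptor phosphatase at cell contacts, had 198, 258 and 409 in KO#2, against 873, 709 and 1057 in KO#1 and 1445, 726 and 1337 in sgControl. ALCAM, an adhesion molecule of the immunoglobulin family, had 246, 843 and 1259 in KO#2, against 2165, 2231 and 3219 in KO#1 and 1190, 1300 and 1215 in sgControl. SPARC in KO#2 lay nearest sgControl and PTPRM lay below it, while ALCAM in KO#2 spanned up to the sgControl level. EDIL3, a matrix protein that binds integrins, had 135, 330 and 420 in KO#2, against 1003, 699 and 1336 in KO#1 and 544, 274 and 579 in sgControl. PRAME, a tumour antigen, had 394, 318 and 330 in KO#2, against 889, 643 and 661 in KO#1 and 617, 541 and 593 in sgControl. In each of these 7 lower genes the adjusted p was 0.888, and without KO#2 replicate 1 it lay between 0.202 and 0.407.

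Among genes higher in KO#2, CKB, a cytosolic creatine kinase, had 935, 368 and 280 in KO#2, 76.6, 77.6 and 158 in KO#1, and 214, 196 and 212 in sgControl. GLUL, which makes glutamine, had 741, 674 and 758 in KO#2, against 231, 255 and 400 in KO#1 and 603, 582 and 769 in sgControl. SLCO4A1, an organic anion transporter, had 2065, 1433 and 2396 in KO#2, 307, 921 and 650 in KO#1, and 254, 495 and 334 in sgControl. GLUL in KO#2 thus lay at the sgControl level, while SLCO4A1 in KO#2 exceeded all other libraries. SRGAP3, a GTPase activator, had 825, 632 and 872 in KO#2, 315, 407 and 337 in KO#1, and 538, 275 and 516 in sgControl. ETS2, a transcription factor, had 383, 302 and 344 in KO#2, against 187, 204 and 196 in KO#1 and 422, 334 and 511 in sgControl. SLC35F6, GPRC5C and TMEM120A made up the rest of the 8, with log2 fold changes of 1.24, 2.35 and 1.18 with 6 libraries and of 0.94, 1.77 and 0.78 without KO#2 replicate 1. All 8 had a limma adjusted p of 0.888 with 6 libraries and of 0.406 to 0.768 without KO#2 replicate 1.

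Of the 34 gene lists, no member passed the test with 6 or with 5 libraries. The list medians without KO#2 replicate 1 ran from -0.82 to 1.49, beside -0.01 for all genes tested. The lists are described next, each with its median with and without that library.

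**Figure D3:**
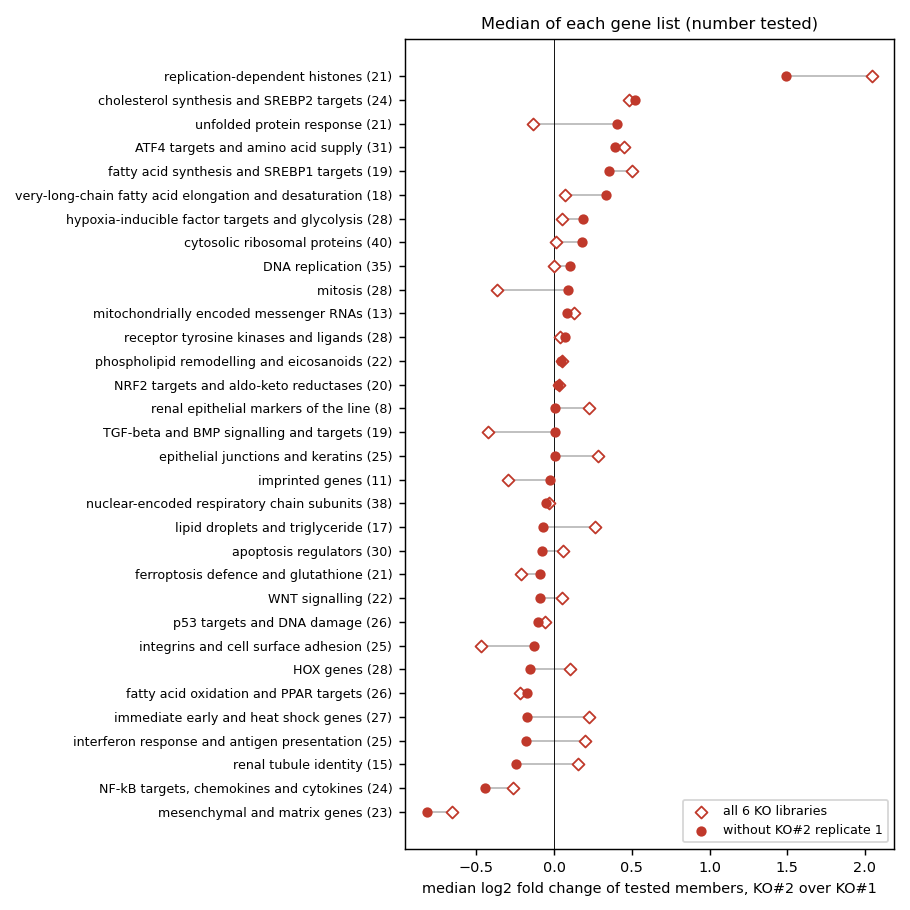
Median log2 fold change of KO#2 over KO#1 for the tested members of each gene list with at least 5 of them, with the number tested in brackets; diamonds use all 6 KO libraries and filled points leave out KO#2 replicate 1. Mesenchymal and matrix genes lie lowest, at -0.66 and -0.82, and replication-dependent histones highest, at 2.05 and 1.49.

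Mesenchymal and matrix genes had the lowest median. Over 23 tested members it was -0.66 with 6 libraries and -0.82 without KO#2 replicate 1. In 11 of the 23 all KO#2 libraries lay below all KO#1 libraries, against 4.46% of all genes, and in 1, S100A4, above them, against 4.47%; without KO#2 replicate 1 these counts were 15 and 1, against 10.1% and 10.5%. FN1, SPARC and THBS1, among the 4 members with the lowest p without that library, are given above. S100A4, a calcium-binding protein named after its values were seen, had 26.4, 26.0 and 21.7 in KO#2, against 6.11, 9.44 and 15.6 in KO#1 and 48.1, 40.8 and 73.7 in sgControl. None of the 23 members passed the test in either fit.

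**Figure D4:**
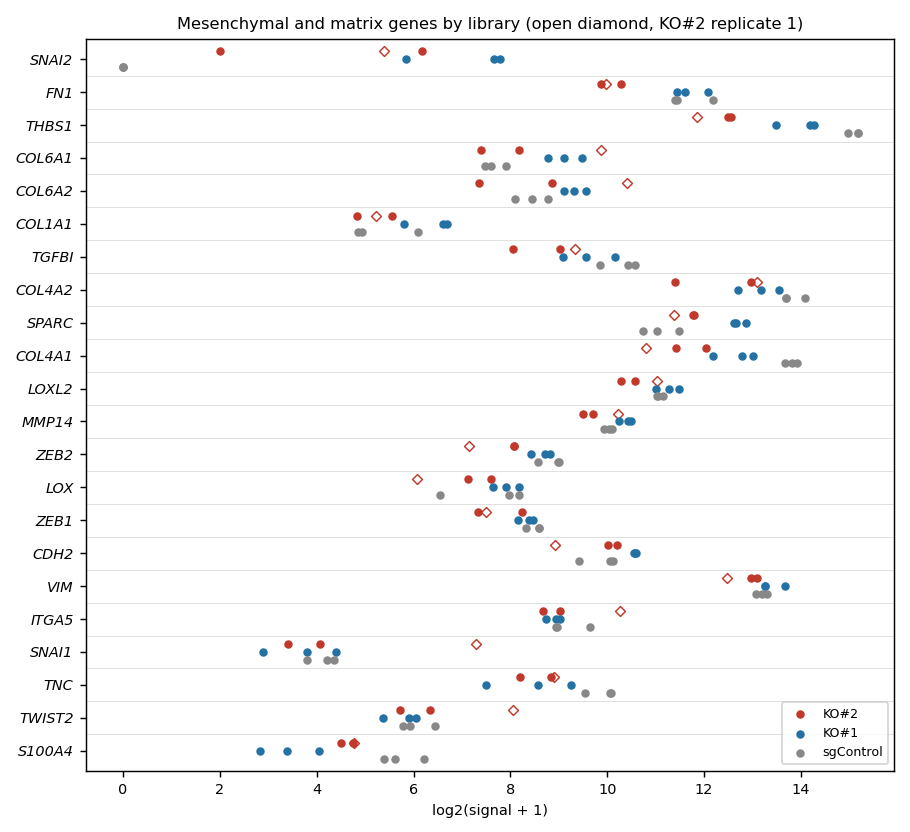
Signal of 22 of the 23 tested mesenchymal and matrix genes as log2(signal + 1), with 1 point per library, ordered by log2 fold change without KO#2 replicate 1 with the lowest at the top; the open diamond is KO#2 replicate 1. KO#2 libraries lie left of KO#1 libraries without overlap in 10 of the 22 genes drawn.

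Integrins and other adhesion genes had a median of -0.47 with 6 libraries and -0.13 without KO#2 replicate 1, over 25 members. In 5 of them the KO#2 libraries lay below the KO#1 libraries without overlap and in 1 above, against 4.46% and 4.47% of all genes; without KO#2 replicate 1 the counts were 6 and 3, against 10.1% and 10.5%. CD82, a tetraspanin, had 130, 117 and 91.7 in KO#2, against 215, 234 and 255 in KO#1 and 51.3, 147 and 51.3 in sgControl. PCDH1, a protocadherin, had 1412, 444 and 744 in KO#2, against 171, 316 and 246 in KO#1 and 299, 277 and 644 in sgControl. CD82 was lower and PCDH1 higher in every KO#2 library than in any KO#1 library. ITGB6, an integrin chain of epithelia, had 107, 469 and 449 in KO#2, 134, 215 and 299 in KO#1, and 1716, 823 and 1124 in sgControl, so that KO#2 replicate 1 lay below KO#1 and the others above.

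Epithelial junction and keratin genes had a median of 0.28 with 6 libraries and 0.00 without KO#2 replicate 1 over 25 members. Without that library and after GC correction the median was 0.14. CDH1, E-cadherin of adherens junctions, had 371, 716 and 542 in KO#2, 319, 369 and 454 in KO#1, and 6183, 3831 and 6059 in sgControl. Its KO libraries overlapped between the guides and lay far below sgControl. CLDN1, a claudin of tight junctions, had 2258, 13510 and 13510 in KO#2, against 7316, 7022 and 10278 in KO#1 and 5153, 7281 and 6987 in sgControl. ESRP1, an epithelial splicing regulator, had 11.8, 43.4 and 66.8 in KO#2, against 18.8, 14.2 and 25.4 in KO#1 and 7.33, 0.444 and 0 in sgControl. Both lay above all KO#1 libraries once KO#2 replicate 1 was left out.

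Lipid genes were examined because of the enzyme targeted. Cholesterol synthesis and SREBP2 targets had a median of 0.48 with 6 libraries and 0.52 without KO#2 replicate 1. Without that library 23 of the 24 members had a positive log2 fold change, as did 6380 of all 12934 genes. Their median deviation from the mean of the 6 KO libraries was 0.22, 0.73 and 0.13 in KO#2 replicates 1 to 3. In KO#1 it was -0.68, 0.35 and -0.47, and in sgControl 0.17, 0.49 and -0.38. The second library was thus the highest of each group, and KO#2 replicate 3 lay below KO#1 replicate 2. With all 6 libraries 0 of the 24 had KO#2 libraries wholly above or below KO#1 libraries, against 4.47% and 4.46% of all genes, and without KO#2 replicate 1 there were 3 above and 1 below, against 10.5% and 10.1%. STARD4, a carrier of cholesterol, had 90.1, 1533 and 967 in KO#2, against 302, 651 and 424 in KO#1 and 643, 925 and 662 in sgControl. CYP51A1, which removes a methyl group from lanosterol, had 147, 840 and 561 in KO#2, against 223, 468 and 332 in KO#1 and 567, 803 and 547 in sgControl. In both genes KO#2 replicate 1 was the lowest of the 9 libraries and the other KO#2 libraries exceeded all KO#1 libraries.

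Fatty acid synthesis and SREBP1 targets had medians of 0.50 and 0.35 with and without KO#2 replicate 1 over 19 members, of which 4 lay wholly higher in KO#2 with 6 libraries and 7 without that library, and 0 wholly lower in either count. Over all genes 4.47% and 10.5% lay wholly higher in these counts, and 4.46% and 10.1% wholly lower. MLXIPL, a glucose-responsive transcription factor, had 24.7, 21.6 and 26.1 in KO#2, 9.78, 8.67 and 7.56 in KO#1, and 87.4, 50.3 and 90.7 in sgControl. LPIN1, a phosphatidate phosphatase, had 561, 811 and 930 in KO#2, 276, 644 and 467 in KO#1, and 1299, 1092 and 895 in sgControl. MLXIPL separated the guides in every library, while LPIN1 did so without KO#2 replicate 1.

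For the elongation and desaturation genes the medians were 0.07 and 0.33 over 18 members, and 0 members lay wholly apart with 6 libraries, against 4.47% of all genes higher and 4.46% lower. Without KO#2 replicate 1, 4 lay wholly higher and 1 wholly lower, against 10.5% and 10.1%. SCD, the stearoyl-CoA desaturase, had 5166, 11966 and 10891 in KO#2, against 4246, 7570 and 5324 in KO#1 and 8442, 7715 and 5877 in sgControl. ELOVL7, an elongase of long saturated chains, had 130, 1043 and 513 in KO#2, against 198, 440 and 335 in KO#1 and 380, 572 and 548 in sgControl. Both showed the KO#2 libraries 2 and 3 above all KO#1 libraries, and their limma adjusted p without KO#2 replicate 1 was 0.674 and 0.850. Among lipid droplet genes the medians were 0.26 and -0.07 over 17 members. FABP3, a fatty acid binding protein, had 125, 43.4 and 22.9 in KO#2, 4, 5.67 and 12.9 in KO#1, and 0, 0.444 and 0 in sgControl, and its KO#2 libraries were the highest of the 9.

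Fatty acid oxidation genes had medians of -0.22 and -0.17 over 26 members. ACADVL, which oxidizes very-long-chain acyl-CoA, had 1987, 1152 and 1255 in KO#2, against 2283, 2438 and 1662 in KO#1 and 1433, 1636 and 1041 in sgControl. HADH, a later enzyme of the same cycle, had 255, 326 and 234 in KO#2, against 179, 183 and 171 in KO#1 and 239, 212 and 302 in sgControl. ANGPTL4, a secreted inhibitor of lipoprotein lipase, had 646, 81.8 and 207 in KO#2, against 275, 301 and 352 in KO#1 and 108, 89 and 106 in sgControl, and KO#2 replicate 1 was its highest library. Without KO#2 replicate 1, ACADVL lay below all KO#1 libraries, and HADH lay above them in all KO#2 libraries. Of the phospholipid remodelling and eicosanoid genes, AKR1C3 had 55.9, 22.8 and 21.1 in KO#2, 67.8, 45.8 and 55.2 in KO#1, and 174, 52.7 and 213 in sgControl, and PLA2G4A, which frees arachidonic acid, had 32.2, 64.6 and 76.3 in KO#2, 108, 134 and 125 in KO#1, and 2.56, 7.56 and 12.7 in sgControl. PLA2G4A separated the guides in every library, and AKR1C3 overlapped through KO#2 replicate 1. Their list medians were 0.05 and 0.05 over 22 members.

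Among ferroptosis and glutathione genes, with medians of -0.21 and -0.09 over 21 members, SLC7A11, the cystine importer, had 179, 499 and 567 in KO#2, 226, 195 and 337 in KO#1, and 112, 163 and 210 in sgControl. GSR, glutathione reductase, had 1099, 2250 and 2262 in KO#2, 1687, 1285 and 1611 in KO#1, and 1422, 982 and 2108 in sgControl. KO#2 replicate 1 was low in both, and the other KO#2 libraries lay above all KO#1 libraries.

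Genes of the stress responses differed in how they sat between the guides. ATF4 targets, which include amino acid synthesis and transport genes, had medians of 0.45 and 0.39 over 31 members, with 4 and 8 members wholly higher in KO#2 and 0 wholly lower in either count. Of all genes 4.47% and 10.5% were wholly higher, and 4.46% and 10.1% wholly lower. DDIT4, an inhibitor of mTORC1 signalling, had 1675, 1727 and 1475 in KO#2, against 801, 546 and 1243 in KO#1 and 1163, 501 and 1456 in sgControl. CTH, which makes cysteine, had 49.9, 43.3 and 45.6 in KO#2, 22.7, 17.9 and 24.7 in KO#1, and 15.3, 7 and 20.7 in sgControl. PSPH, of serine synthesis, had 491, 957 and 906 in KO#2, against 486, 604 and 656 in KO#1 and 692, 573 and 771 in sgControl. Only KO#2 replicate 1 lay among the KO#1 libraries for PSPH.

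Unfolded protein response genes had a median of -0.14 with KO#2 replicate 1 and 0.40 without it, over 21 members. Without that library 19 of the 21 had a positive log2 fold change, as did 6380 of all 12934 genes, and 4 lay wholly higher and 1 wholly lower, against 10.5% and 10.1%. Their median deviation from the mean of the 6 KO libraries was -1.21, 0.18 and 0.84 in KO#2 replicates 1 to 3, against 0.13, 0.16 and 0.06 in KO#1. KO#2 replicate 2 thus lay near KO#1, and the 0.40 rests mainly on KO#2 replicate 3. HERPUD1, of endoplasmic reticulum degradation, had 1168, 1370 and 3027 in KO#2, 896, 729 and 975 in KO#1, and 839, 844 and 859 in sgControl. XBP1, a transcription factor of this response, had 686, 913 and 1236 in KO#2, 595, 556 and 803 in KO#1, and 374, 638 and 510 in sgControl. KO#2 replicate 3 was the highest library in each. In the TGF-beta and BMP list (medians -0.42 and 0.01 over 19 members), TGFB2, a ligand, had 425, 685 and 1254 in KO#2, against 2345, 1622 and 3114 in KO#1 and 1786, 767 and 1636 in sgControl. LTBP2, a matrix protein that binds fibrillin, had 1319, 439 and 1392 in KO#2, 1728, 1636 and 1843 in KO#1, and 451, 349 and 270 in sgControl. ID3, an inhibitor of helix-loop-helix factors, had 51.0, 7.78 and 9 in KO#2, 168, 35.6 and 16.1 in KO#1, and 4.89, 18.9 and 7.56 in sgControl. TGFBR3, a co-receptor, had 76.6, 189 and 104 in KO#2, 66.8, 85.6 and 45.1 in KO#1, and 39.1, 72.2 and 110 in sgControl. TGFB2 and LTBP2 were lower in every KO#2 library than in any KO#1 library, and ID3 and TGFBR3 overlapped.

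Of WNT genes besides WNT5A, FZD3, a WNT receptor, had 43.6, 223 and 220 in KO#2, against 105, 106 and 89.1 in KO#1 and 23.2, 7.33 and 28.0 in sgControl. The KO#2 libraries lay on either side of the KO#1 libraries. The list had medians of 0.05 and -0.09 over 22 members. NF-kB targets and cytokines had medians of -0.26 and -0.44 over 24 members. CSF1, a growth factor for macrophages, had 542, 229 and 370 in KO#2, 1055, 430 and 474 in KO#1, and 254, 499 and 290 in sgControl. IL11, a cytokine, had 44.1, 1.00 and 12.2 in KO#2, 22, 10.9 and 28.7 in KO#1, and 3.56, 2.44 and 5.11 in sgControl. Both overlapped between the guides.

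Receptor and growth factor genes had medians of 0.04 and 0.07 over 28 members. ERBB3, a receptor for neuregulin, had 86.4, 71.9 and 99.0 in KO#2, 14.4, 48.1 and 35.3 in KO#1, and 163, 70.1 and 120 in sgControl. HBEGF, a ligand of the EGF receptor, had 136, 47.3 and 105 in KO#2, 366, 109 and 183 in KO#1, and 29.6, 102 and 45.8 in sgControl. ERBB3 separated the guides in every library, while HBEGF overlapped. TNFRSF11B, osteoprotegerin, had 15.3, 80.3 and 122 in KO#2, 14.9, 16.7 and 20.4 in KO#1, and 13.8, 12.4 and 8.22 in sgControl. Its KO#2 replicate 1 lay among the KO#1 libraries. It had a log2 fold change of 2.46 without KO#2 replicate 1 (SE 0.36, limma adjusted p = 0.162) and 1.59 with it (adjusted p = 0.888).

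Immediate early and heat shock genes had medians of 0.22 and -0.17 over 27 members. KLF2, a transcription factor, had 737, 228 and 201 in KO#2, against 77.3, 147 and 138 in KO#1 and 68.1, 81.2 and 47.9 in sgControl, so that KO#2 was higher in every library. HSPA1B, a heat shock chaperone, had 456, 42.3 and 80.1 in KO#2, 1568, 271 and 104 in KO#1, and 84.7, 191 and 60.9 in sgControl, where KO#1 replicate 1 was the highest. The guides overlapped for HSPA1B. BAG3, its co-chaperone, had 963, 358 and 534 in KO#2, 2105, 945 and 589 in KO#1, and 611, 586 and 402 in sgControl. JUN, a subunit of AP-1, had 1145, 248 and 817 in KO#2, 1713, 695 and 1386 in KO#1, and 742, 567 and 552 in sgControl, and both overlapped between the guides.

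Replication-dependent histone genes had the highest list median, 2.05 with all libraries and 1.49 without KO#2 replicate 1. In both fits 21 of 21 members had a positive log2 fold change. Of all 12934 genes, 6413 did so with 6 libraries and 6380 without KO#2 replicate 1. Their KO#2 libraries differed widely. HIST1H4C had 6404, 3714 and 1119 in KO#2, against 387, 992 and 679 in KO#1 and 1093, 1080 and 695 in sgControl. HIST1H2AC had 8890, 6790 and 1617 in KO#2, against 630, 1564 and 1189 in KO#1 and 1869, 1800 and 1275 in sgControl. HIST1H4E had 7070, 5477 and 1333 in KO#2, against 637, 1321 and 1113 in KO#1 and 1056, 980 and 726 in sgControl. KO#2 replicates 1 and 2 were the highest of the 9 libraries in these 3 genes, and KO#2 replicate 3 was near the highest KO#1 library. Only these 3 of the 21 lay wholly higher in KO#2 with 6 libraries, and 0 wholly lower, against 4.47% and 4.46% of all genes. Without KO#2 replicate 1 the counts were also 3 and 0, against 10.5% and 10.1%. As a median deviation of the 21 from their mean over the 6 KO libraries, KO#2 replicates 1 to 3 had 2.23, 1.77 and -0.93, KO#1 replicates -1.83, -0.02 and -1.20, and sgControl replicates -0.65, -0.06 and -1.54. These genes sit in a few clusters of near-identical members, so reads shared between them make single members uncertain.

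Lists of genes that act in cell division were high in 1 library of each group. For 28 mitosis genes the second library was the highest of its group, at a median deviation of 1.36 in KO#2, 1.70 in KO#1 and 1.55 in sgControl, against -1.13 and -0.88, -0.99 and -0.13, and -0.14 and -0.11 in the others. For 35 DNA replication genes the second libraries had 0.95, 0.61 and 0.48. The replicate numbers are places in sample order, and the labels state no pairing. Over tested genes KO#2 replicate 2 correlated with KO#1 replicate 2 at 0.962 and KO#2 replicate 3 with KO#1 replicate 3 at 0.977. Both exceeded the 0.936 between these KO#2 libraries, and so did most unlike-numbered pairs. KO#2 replicate 3 with KO#1 replicates 1 and 2 stood at 0.955 and 0.948. KO#2 replicate 2 stood at 0.941 with KO#1 replicate 3 and at 0.922 with KO#1 replicate 1. The like-numbered KO#1 library was thus the closest for each of these KO#2 libraries. With sgControl replicates 1 to 3, KO#2 replicate 2 stood at 0.892, 0.925 and 0.896, and KO#2 replicate 3 at 0.912, 0.904 and 0.919. A batch by place in the order was not tested, nor was how these values bear on the histones.

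**Figure D5:**
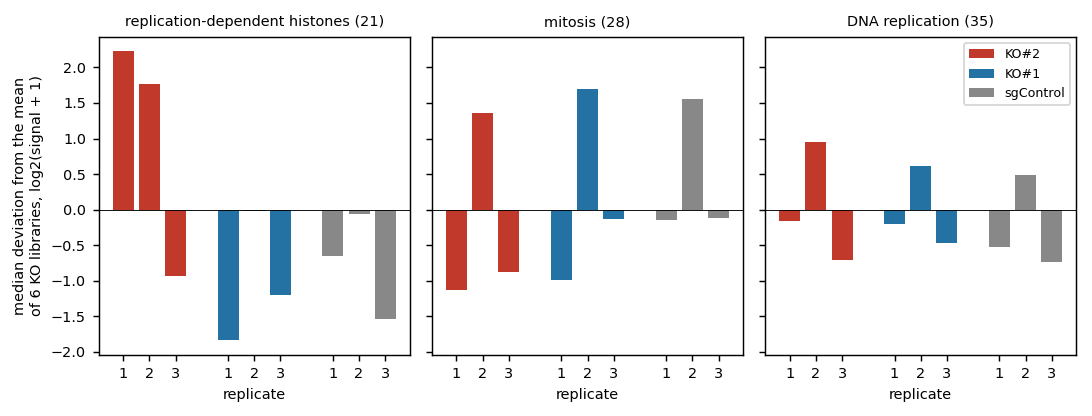
Median deviation of the tested members of 3 lists from their mean over the 6 KO libraries, on the log2(signal + 1) scale, 1 bar per library, bars starting at 0. Histone genes are high in KO#2 replicates 1 and 2 and low in KO#2 replicate 3, while mitosis genes are high in the second library of each group.

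Ribosomal protein genes, with medians of 0.01 and 0.18 over 40 members, had 8 wholly higher and 1 wholly lower in KO#2 with 6 libraries, against 4.47% and 4.46% of all genes, and 15 and 1 without KO#2 replicate 1, against 10.5% and 10.1%. For mitochondrially encoded messenger RNAs the medians were 0.13 and 0.08 over 13 members. MT-ND4L, a complex I subunit, had 13293, 10481 and 9668 in KO#2, against 5673, 4333 and 6756 in KO#1 and 11326, 5647 and 6404 in sgControl. Its KO#2 libraries lay above all KO#1 libraries and overlapped the sgControl libraries.

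The remaining lists, of renal tubule identity, renal epithelial markers, interferon response, p53 targets, hypoxia-inducible factor targets, NRF2 targets, apoptosis regulators, HOX genes, imprinted genes, cancer-testis antigens, nuclear-encoded respiratory chain subunits and markers of other cell types, had medians between -0.29 and 0.22 with 6 libraries and between -0.38 and 0.18 without KO#2 replicate 1. The last of these holds 3 tested genes.

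Chromosomes were compared to see whether a region moved as a whole. Without KO#2 replicate 1 and after GC correction, the chromosome medians of log2 fold change lay between -0.06 and 0.10. On chromosome 6, which carries ELOVL5, the 370 tested genes toward the short-arm end had a median of 0.03 and the 281 on the other side 0.01, and the 10 nearest tested genes on each side of ELOVL5 together had -0.00. With all 6 libraries and no GC correction these medians were 0.21 and -0.40 for the sides and -0.44 for the 20 nearest genes, and the chromosome medians ran from -0.43 for chromosome 13 to 0.39 for chromosome 19.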

How the data were processed

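Total RNA was turned into strand-specific libraries (NEBNext Ultra Directional) and sequenced from paired ends on a NextSeq500, per the labels' protocols. The deposited table holds a signal that the authors obtained by quantile normalization of gene read counts, as the table's name says. The submitters' processing notes list the mouse build mm10 although the gene names are human. The sources used here give no aligner, counter or use of strand, so overlapping and near-identical genes are uncertain, and no gene coordinates are taken from the table. Raw depth is unknown. The number of features at or above a low read count was read back from the table order of equal values, a method checked on simulated data.

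Genes with a mean signal of at least 10 over the 6 KO libraries were tested on log2(signal + 1), a scale that understates changes of low genes, with limma 3.58.1 (R 4.3.3), moderated variances that follow a trend on the mean, two-sided, with Benjamini-Hochberg adjustment over all tested genes and a threshold of 0.05. The script was tested on simulated data. With 3 against 3 libraries an exact permutation test cannot go below p = 0.1. Of the tested genes 12360 matched a RefSeq name, 925 of them through an older symbol, and 12419 (96.02%) had a GC content, taken from the longest GENCODE transcript. GC correction subtracted a lowess curve (span 0.3) of each library's deviation on GC content. SE is limma's moderated standard error, and replicate numbers are places in sample order. Where a group holds 0 in each of its libraries, the gene is described as listed at 0.

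The members and gene lists were chosen with earlier results of these data known. The rule for named genes took ELOVL5, called genes by fold change, and up to 4 list members by lowest p without KO#2 replicate 1; other named genes are said to be chosen after their values were seen. Alternatives left out each library, used a pseudocount of 10, no filter or a mean of at least 50, library weights, no variance trend, median-centred libraries, GC correction, or all 9 libraries. The fits combining all 9, or 8, libraries with GC correction were chosen after seeing the data. A chromosome or promoter was assigned by RefSeq name (GRCh38.p14). No sample column was left unused (0), and 21 tested features whose names a spreadsheet had turned into dates are not named. Figures were drawn with matplotlib. One gene is counted among the totals but not reported here.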

Additional observations from a re-analysis of the deposited data

How the results depend on the processing

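The count of genes called between the guides was 0 with 6 libraries, 0 under the other alternatives, 1 without KO#2 replicate 1, 12 with all 9 libraries less KO#2 replicate 1, and 12 with all 9 libraries and GC correction. Leaving out 1 library of the 6 gave 0 to 1 calls. Without KO#2 replicate 1 the count of 1 became 0 without any other library, 0 with library weights or without a variance trend, 3 with a pseudocount of 10, 158 of 22433 genes with no filter on low values (135 higher, 23 lower), 12 with sgControl in the fit and 13 with GC correction added. Called list members numbered 0 in the 6-library fit, 3 with all 9 libraries less KO#2 replicate 1, and 1 with all 9 libraries and GC correction.

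ELOVL5, at -0.21, turned to 0.31 without KO#2 replicate 1, with or without sgControl in the fit, to 0.56 with library weights and to 0.21 with GC correction in either fit; leaving out 1 library gave -0.71 to 0.31. CLDN1, at -0.12, turned to 0.74 without KO#2 replicate 1 in either fit, 0.36 with weights and 0.31 with GC correction in either fit, and leaving out 1 library gave -0.55 to 0.74. Leaving out 1 library also turned ANGPTL4 (-1.23 to 0.25), CYP51A1 (-0.18 to 1.07), ELOVL7 (-0.25 to 1.25), FZD3 (-0.020 to 1.14), IL11 (-1.97 to 0.28) and STARD4 (-0.56 to 1.48). The library weights were 0.194, 1.41 and 0.0166 in KO#2 replicates 1 to 3, and 4.92 to 8.83 in the KO#1 libraries. KO#2 replicate 3 thus weighed less than KO#2 replicate 1. The weighted KO#2 level rests mostly on KO#2 replicate 2, so 0.56 and 0.36 are not a separate check on KO#2 replicate 1. The cause of the turns was not tested. No paired analysis was run, because the labels give no replicate numbers and state no pairing. Low values rest on few reads, most of all in KO#2 replicate 1.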
